A study of Mus musculus with 12 samples.

Results

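The effect of the REV-ERB knockout label on gene expression at ZT10 was read from 6 of the 12 RNA-seq libraries of the series, 3 from wild-type mice (WT, replicates 1 to 3) and 3 from mice with a knockout of the REV-ERB genes in skeletal muscle (KO, replicates 1 to 3). All 6 came from the tibialis anterior, a fast limb muscle at the front of the lower leg, taken at the time that the sample titles call ZT10 (zeitgeber time, hours after lights on). The members were chosen by those titles, and no expression value entered the choice. The sources used here give neither the promoter that drives the deletion in muscle, nor the alleles, the strain, the age or the sex of the animals. The design text of the series names ZT0 and ZT12 in place of the times in the titles, so the clock time of these 6 libraries is uncertain, while their grouping is not. The labels list the replicates as separate samples and do not state their source, so p-values measure the spread between these samples only, which may be technical.

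The nuclear receptors REV-ERBα and REV-ERBβ, encoded by Nr1d1 and Nr1d2, bind haem and repress transcription through the corepressor NCoR and the histone deacetylase HDAC3. They compete at shared DNA elements with the activating ROR receptors, and the best-known gene under this switch is Arntl, which encodes the clock activator BMAL1. BMAL1 and CLOCK in turn activate the Per, Cry, Dbp and Nr1d genes through E-boxes. In skeletal muscle, REV-ERB is known for effects on mitochondrial content, autophagy and fuel use.

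Values are FPKM, fragments per kilobase of transcript per 1e+06 fragments, as the authors deposited them. A log2 difference is the mean log2(FPKM + 1) of the KO libraries minus that of the WT libraries, and the added 1 makes the change of a weakly expressed gene look smaller. Its error is the standard error from limma (n = 3 against 3), and genes with an adjusted p (Benjamini-Hochberg) below 0.05 were called. Rough estimates, with no interval, put the depth at 11.4 to 13.5 per library, in units of 1e+06 fragments. The defining transcripts of fast muscle were abundant in all 6 libraries, with the myosin heavy chain Myh4 at 7394 to 10433 FPKM and the creatine kinase Ckm at 16117 to 21431 FPKM.

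The gene that the knockout targets went against the label. Nr1d1 was at 37.0, 31.6 and 27.6 FPKM in WT and 420.0, 503 and 359 FPKM in KO. Every library labelled KO lay far above every WT library, and the log2 difference was 3.69 ± 0.15 (adjusted p = 1.36e-05). Nr1d2 was at 37.5, 42.4 and 43.6 FPKM in WT and 36.5, 40.6 and 40.2 FPKM in KO, and the groups overlapped, with a log2 difference of -0.07 ± 0.10 (adjusted p = 0.71). A value for a whole gene does not show whether an exon is missing, so neither gene checks the deletion. Here KO names what a library is labelled, and each direction is taken from that label. Nr1d1 (ENSMUSG00000020889.11) spans 98767932 to 98775333 on chromosome 11, minus strand, in GRCm38 (GENCODE M21), and its span shares 1075 bp with that of the thyroid hormone receptor gene Thra on the plus strand. Thra was at 24.2, 25.3 and 26.3 FPKM in WT and 15.3, 13.6 and 15.4 FPKM in KO, lower in every KO library (log2 difference -0.74 ± 0.10, adjusted p = 0.00337). The sources used here do not say whether reads were counted by strand, so reads from the shared stretch cannot be assigned to one of these genes.

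KO replicate 3 stood apart from the other libraries. Its log2 values correlated across the 9716 genes tested at Pearson r = 0.977 and 0.981 with KO replicates 1 and 2, which correlated with each other at 0.992, and the genes in such a correlation are not independent replicates. It lay above all 5 other libraries by more than 1 log2 unit in 43 genes and below all of them by as much in 39 genes, whereas no other library did so in more than 15 genes. The median SD over genes was 0.12 on the log2 scale in WT and 0.15 in KO, or 0.09 in KO replicates 1 and 2 alone. Among the genes lowest in KO replicate 3 was Hdac3, the deacetylase that works with NCoR, at 35.8, 34.0 and 34.6 FPKM in WT and 39.2, 40.5 and 6.48 FPKM in KO. The other 5 libraries lay close together, and the gene was not called (log2 difference -0.63 ± 0.57, adjusted p = 0.543). Mylk4, a kinase of the myosin light chain kinase family, was at 603, 781 and 756 FPKM in WT and 260.1, 282 and 39.0 FPKM in KO. All KO libraries were lower than all WT libraries, yet the gene was not called with KO replicate 3 (log2 difference -2.31 ± 0.65, adjusted p = 0.071) and passed without it (-1.38, adjusted p = 0.000173). The creatine synthesis enzyme Gamt was at 16.8, 12.9 and 9.12 FPKM in WT and 18.2, 14.3 and 2.17 FPKM in KO, lowest in KO replicate 3.

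Genes that stood far higher in KO replicate 3 than in the other 5 libraries included the lysosomal protease Ctsl, the mitochondrial folate enzyme Mthfd2 and the SERCA inhibitor sarcolipin (Sln). Ctsl was at 45.6, 51.1 and 48.1 FPKM in WT and 65.1, 75 and 317 FPKM in KO, so KO replicates 1 and 2 also lay above WT. Mthfd2 was at 1.49, 1.2 and 1.74 FPKM in WT and 1.65, 0.940 and 14.5 FPKM in KO. Sln was at 3.60, 0.950 and 0.810 FPKM in WT and 0.700, 0.550 and 13.7 FPKM in KO. None of these was called (adjusted p = 0.183, 0.495 and 0.789). Myom3, an M-band protein of the sarcomere, was at 2.18, 2.62 and 2.64 FPKM in WT and 5.04, 6.36 and 23.8 FPKM in KO, higher in each KO library than in each WT library. It was not called with all 6 libraries (adjusted p = 0.0758) and was called when KO replicate 3 was left out (log2 difference 0.94, adjusted p = 0.00242). In the genes called, KO replicate 3 tended to lie farthest out: it was the most distant of the 3 KO libraries from WT in 55.6% of the genes called higher and in 57.6% of those called lower. No library of this group carries a batch label in the sources used here.

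**Figure D1:**
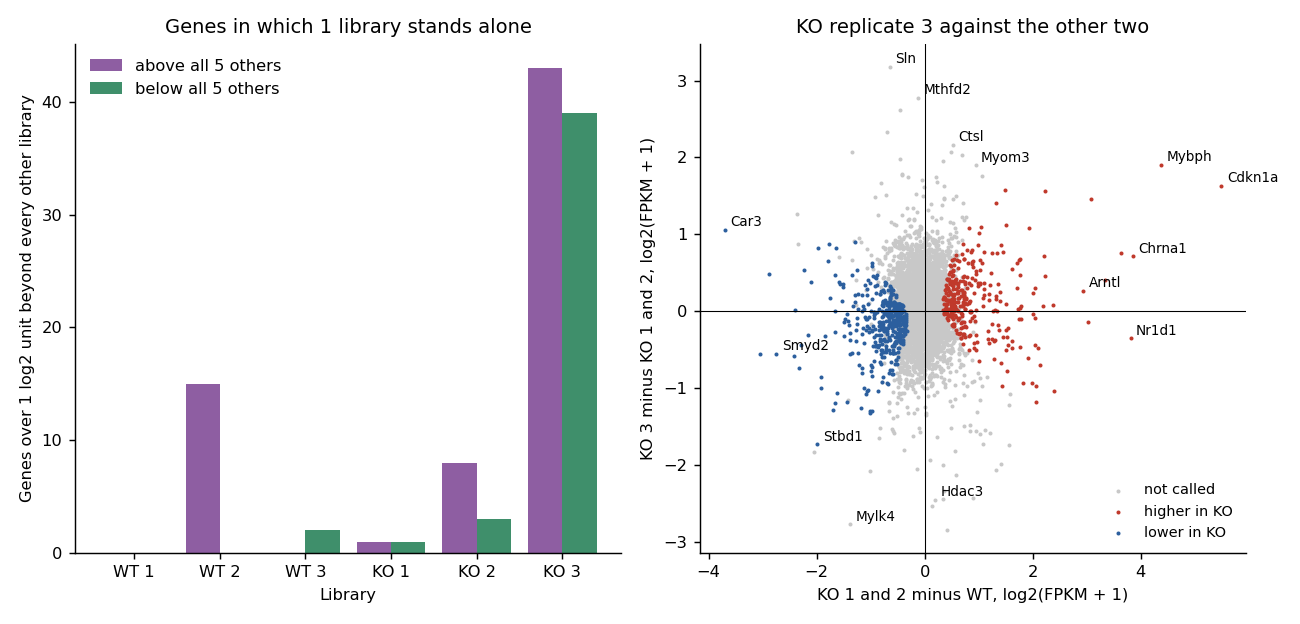
Left, number of genes (y axis) in which a library lay more than 1 log2 unit above (purple) or below (green) all 5 other ZT10 libraries. Right, for each of the 9716 genes tested, the log2(FPKM + 1) of KO replicates 1 and 2 minus WT (x axis) against KO replicate 3 minus KO replicates 1 and 2 (y axis), with genes called higher in red, called lower in blue and not called in grey. KO replicate 3 stands alone in 43 genes above and 39 below, and Hdac3, Mylk4, Sln and Mthfd2 depart along the vertical axis, while Arntl and Nr1d1 depart mainly along the horizontal axis.

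Of the 9716 genes whose mean reached 1 FPKM, 765 (7.87%) differed, 322 (3.31%) higher and 443 (4.56%) lower in KO, and the median difference over all genes was -0.05 on the log2 scale. These shares are the background for each count of called list members below. The lists were chosen with earlier results of these data known, so an excess over these shares is a description and not a test. At least 2-fold differences numbered 110 higher (1.13%) and 106 lower (1.09%), and at least 4-fold differences 20 and 15. The groups did not overlap in 30.6% of genes, 11.3% higher and 19.3% lower, and in each of the 765 genes called. Single libraries weighed heavily on the count. It was 402 without WT replicate 1, 302 without WT replicate 2, 279 without WT replicate 3 and 434 without KO replicate 2, against 774 without KO replicate 1 and 999 without KO replicate 3. Of the 765 calls, 718 were also made without KO replicate 3. The excess of lower over higher genes depended on scaling: 370 genes were higher and 338 lower after median-of-ratios scaling, and 376 and 328 after removal of a transcript length trend. In whole muscle, fewer cells of a type and less RNA per cell cannot be told apart.

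**Figure D2:**
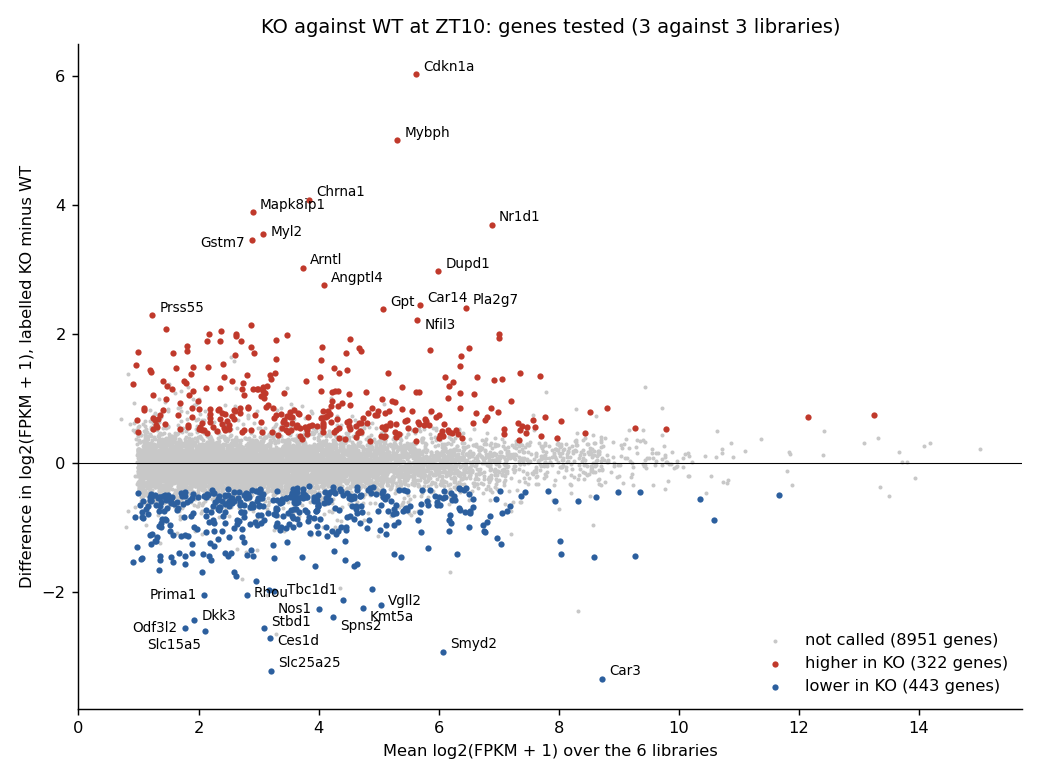
Difference in log2(FPKM + 1), labelled KO minus WT (y axis), against the mean log2(FPKM + 1) of the 6 libraries (x axis) for the 9716 genes tested. Red points were called higher (322), blue points lower (443) and grey points not called, with the 15 largest rises and falls named. Cdkn1a and Mybph rose furthest, and Car3 and Slc25a25 fell furthest.

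All 5 tested genes of the list named for clock activators and clock genes with REV-ERB and ROR elements were called higher, against 3.31% of all genes. Their median log2 difference was 1.71. Of these 5, only Arntl and Nfil3 held the core letters of that element in the short promoter windows described below. Arntl was at 3.63, 4.09 and 3.32 FPKM in WT and 33.0, 36.6 and 42.0 FPKM in KO. Nfil3, a repressor of D-box genes, was at 24.5, 23.7 and 18.9 FPKM in WT and 108, 102 and 109.8 FPKM in KO. Clock, the partner of BMAL1, was at 2.75, 3.75 and 3.90 FPKM in WT and 7.95, 8.08 and 10.6 FPKM in KO. In these 3 genes every KO library stood far above every WT library, and the log2 differences were 3.03 ± 0.12, 2.21 ± 0.11 and 1.15 ± 0.15 (adjusted p = 1.36e-05, 4.24e-05 and 0.00343). Npas2, a paralogue of Clock that can take its place, was close to the floor in WT at 0.0800, 0.0800 and 0.120 FPKM and reached 2.90, 2.44 and 2.43 FPKM in KO. Its log2 difference of 1.71 ± 0.12 (adjusted p = 0.000141) understates the change because of the added 1. Cry1, which represses BMAL1 and CLOCK, was at 6.44, 5.58 and 6.0 FPKM in WT and 11.6, 11.1 and 12.4 FPKM in KO, the smallest of these changes (log2 difference 0.86 ± 0.10, adjusted p = 0.00206). These 5 calls held in every other setting that tested the gene, including each omission of a library.

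Promoter windows of RefSeq (GRCm38.p6, from 250 bases before to 50 after the start site) were searched on both strands for the core letters of the shared REV-ERB and ROR element, TAGGTCA, and for the E-box, CACGTG. Arntl and Nfil3 held the first, and Cry1, Tef and Ciart the second. The stretches below are shown because they carry these letters next to the start sites of genes that rose. They are printed 5′ to 3′ on the strand of the gene, with the match in capitals.
Arntl, chr7:113207529-113207558, plus strand: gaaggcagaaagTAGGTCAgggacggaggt
Nfil3, chr13:52981041-52981111, minus strand: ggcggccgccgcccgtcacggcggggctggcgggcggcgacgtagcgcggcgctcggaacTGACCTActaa
Cry1, chr10:85185079-85185144, minus strand: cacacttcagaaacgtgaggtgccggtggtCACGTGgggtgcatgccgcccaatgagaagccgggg
Ciart, chr3:95882237-95882359, minus strand: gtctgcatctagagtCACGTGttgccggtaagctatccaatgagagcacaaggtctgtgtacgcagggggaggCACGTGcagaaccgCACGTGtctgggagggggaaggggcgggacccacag
Tef, chr15:81802516-81802581, plus strand: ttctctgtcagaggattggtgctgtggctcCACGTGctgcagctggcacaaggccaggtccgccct
The Arntl match begins 31 bases after the start site and the Nfil3 match, on the opposite strand, 12 bases before it. Ciart held 3 E-boxes within the window and Cry1 held 1. The windows of Clock, Npas2, Cdkn1a and Chrna1 held neither motif. TAGGTCA occurred in 2.61% of the 32851 windows, and CACGTG in 7.15%. Among the 7752 tested genes with a window, TAGGTCA was found for 5 of 244 called higher, 5 of 340 called lower and 164 of 7168 not called. These are shares of 2.05%, 1.47% and 2.29%, and for CACGTG they were 12.3%, 9.71% and 12.63%. These letters were chosen with the values of these genes known, and a match is a description, not a site of binding.

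Of 10 tested period genes, E-box repressors and PAR bZIP genes, 4 rose and none fell, against 3.31% and 4.56% of all genes. Dbp, a D-box activator and a direct E-box output of the clock, was at 46.6, 45.01 and 51.9 FPKM in WT and 129, 148 and 80.1 FPKM in KO, with its lowest KO value in replicate 3. Ciart, a repressor of BMAL1 and CLOCK, was at 5.82, 5.60 and 3.52 FPKM in WT and 11.3, 17.4 and 12.4 FPKM in KO. Cry2 was at 14.4, 13.1 and 13.8 FPKM in WT and 21.9, 27.0 and 30.3 FPKM in KO. Tef, a further PAR bZIP activator, was at 78.1, 90.2 and 90.5 FPKM in WT and 122, 139 and 168 FPKM in KO. No WT library overlapped a KO library in these 4 genes, whose log2 differences were 1.26 ± 0.21, 1.30 ± 0.20, 0.88 ± 0.13 and 0.71 ± 0.13 (adjusted p = 0.00961, 0.00712, 0.00528 and 0.015). The calls of Dbp and Tef were lost without WT replicate 1, that of Tef without WT replicate 2 and that of Tef without WT replicate 3 (adjusted p = 0.0522 to 0.0657). The third PAR bZIP gene, Hlf, was at 3.53, 3.82 and 4.35 FPKM in WT and 7.38, 6.79 and 2.81 FPKM in KO. KO replicates 1 and 2 were above WT and KO replicate 3 below it. The gene was not called with all 6 libraries (adjusted p = 0.454) and was called without replicate 3 (log2 difference 0.72, adjusted p = 0.005). Per1, Per2 and Per3 had log2 differences of -0.23 ± 0.20, -0.33 ± 0.11 and -0.14 ± 0.16 and were not called. The kinase Csnk1e, which marks PER proteins for turnover, rose by a log2 difference of 0.40 ± 0.09 (adjusted p = 0.0343) and was the only one called of 9 clock kinases and ubiquitin ligases. The call of Csnk1e was lost without WT replicate 1, WT replicate 2, WT replicate 3 or KO replicate 2 (adjusted p = 0.0895 to 0.143). With the replicate number as a block it was not called either (adjusted p = 0.0703). 

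Rora, a receptor that activates through the same elements, was at 12.4, 15.5 and 15.5 FPKM in WT and 8.10, 7.55 and 9.57 FPKM in KO, with every KO library below every WT library (log2 difference -0.71 ± 0.13, adjusted p = 0.0135). The call of Rora was lost without WT replicate 2, WT replicate 3 or KO replicate 2 (adjusted p = 0.052 to 0.0732). The corepressor Ncor1 was at 19.3, 23.2 and 24.1 FPKM in WT and 19.1, 18.2 and 18.3 FPKM in KO, lower in each KO library but not called (adjusted p = 0.216). Of 11 receptors and corepressors tested, 1 rose (Nr1d1) and 3 fell, Rora and Thra among them, against 3.31% and 4.56% of all genes.

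**Figure D3:**
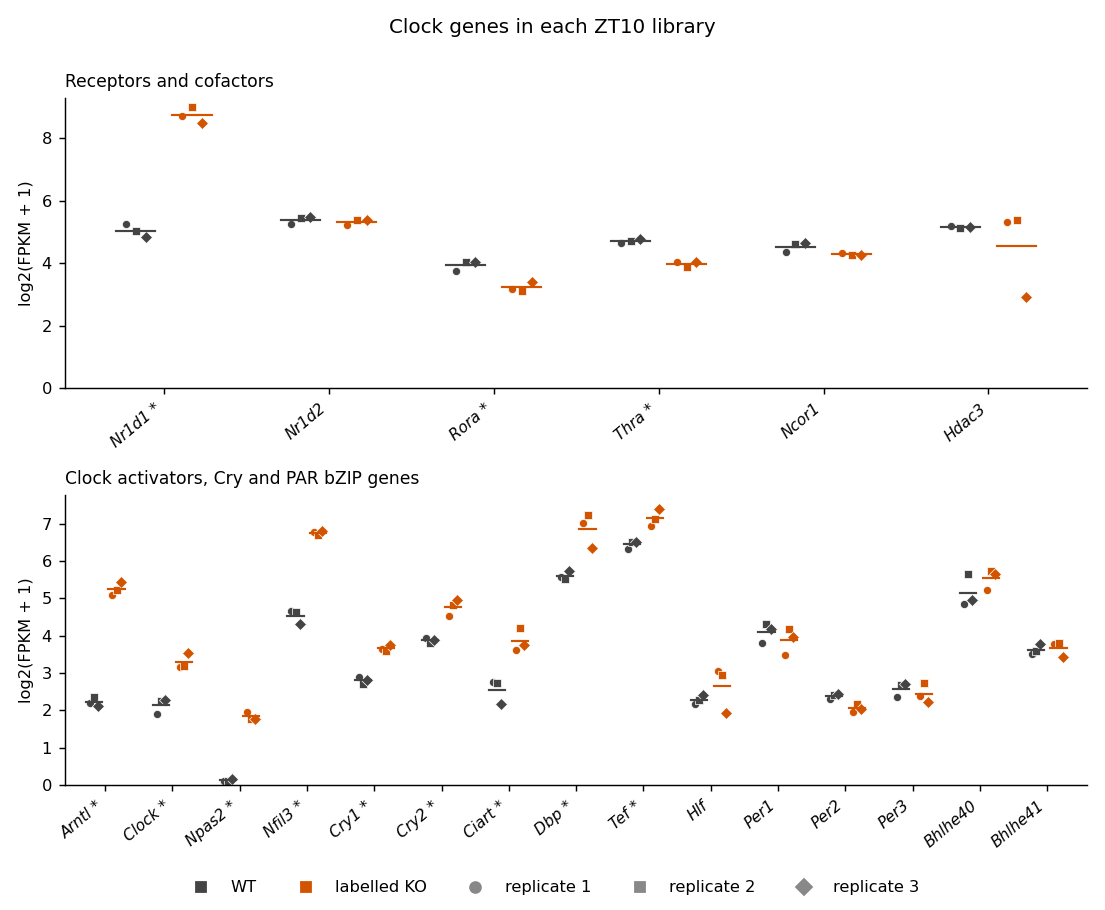
Log2(FPKM + 1) (y axis) of receptors and cofactors (top) and of clock genes (bottom) in each library, WT in grey and labelled KO in orange, with the replicate given by the symbol, the group mean by a line and genes called by an asterisk. Nr1d1, Arntl, Npas2 and Nfil3 separate the groups widely, Rora lies lower in KO, and the KO replicate 3 values of Hdac3, Dbp and Hlf lie below those of the other KO libraries.

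The largest change of all genes called was that of Cdkn1a (p21), an inhibitor of cyclin-dependent kinases. It was at 4.27, 6.39 and 4.70 FPKM in WT and 271, 271 and 841 FPKM in KO. KO replicates 1 and 2 were alike and replicate 3 was higher still, and the log2 difference was 6.03 ± 0.40, or 5.49 without replicate 3 (adjusted p = 0.000138 and 1.35e-07). Cdkn1c (p57), the second inhibitor to rise, was at 7.77, 7.56 and 8.39 FPKM in WT and 20.1, 18.7 and 22.9 FPKM in KO (log2 difference 1.27 ± 0.11, adjusted p = 0.000357). The remaining inhibitors Cdkn1b, Cdkn2c and Cdkn2d had log2 differences of -0.42 ± 0.12, -0.46 ± 0.22 and -0.38 ± 0.12 and were not called. Cdkn1a is a classical target of p53. Of 18 other p53 targets tested, none was called higher by limma and 1 lower, the glycolysis regulator Tigar, against 3.31% and 4.56% of all genes. At an unadjusted p under 0.05 there was 1 higher and 1 lower, against 2325 of all 9716 genes tested. With 3.31% of all genes called higher, a list of 18 may well hold none. The part of p53 was not tested. Tigar was at 47.9, 48.9 and 53.3 FPKM in WT and 25.9, 24.7 and 18.2 FPKM in KO (log2 difference -1.11 ± 0.14, adjusted p = 0.00297). The median of that list was 0.09 on the log2 scale. Without KO replicate 3 it was -0.11, with 1 gene called higher and 2 lower, and with array weights -0.04, with 1 higher and 2 lower.

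At the neuromuscular junction, Chrna1, the acetylcholine receptor α subunit, was at 2.85, 1.92 and 2.73 FPKM in WT and 49.1, 49.0 and 81.0 FPKM in KO, with every KO library far above every WT library (log2 difference 4.09 ± 0.20, adjusted p = 4.24e-05). Chrnb1, the β subunit, was at 13.6, 12.1 and 12.9 FPKM in WT and 26.1, 26.3 and 9.95 FPKM in KO. KO replicates 1 and 2 were above WT and replicate 3 was below it, and the gene was not called with all libraries (adjusted p = 0.346) and was called without replicate 3 (log2 difference 0.97, adjusted p = 0.000267). The adult ε subunit Chrne was at 6.30, 5.48 and 4.99 FPKM in WT and 6.45, 5.32 and 10.2 FPKM in KO and was not called (adjusted p = 0.406). Of 14 synaptic and synaptic matrix genes, 3 rose and none fell, against 3.31% and 4.56% of all genes. Those that rose were the receptor kinase Musk, the collagen tail of acetylcholinesterase Colq and the laminin Lamb2. Musk was at 3.14, 4.08 and 3.91 FPKM in WT and 9.73, 9.35 and 7.22 FPKM in KO. Colq was at 2.35, 2.30 and 2.63 FPKM in WT and 4.18, 4.10 and 7.51 FPKM in KO. Lamb2 was at 26.8, 28.5 and 25.2 FPKM in WT and 40.2, 47.8 and 74.0 FPKM in KO. Their log2 differences were 1.05 ± 0.14, 0.83 ± 0.19 and 0.94 ± 0.20 (adjusted p = 0.00357, 0.0384 and 0.0262). The calls of Colq and Lamb2 were lost without WT replicate 1, those of Colq and Lamb2 without WT replicate 2, those of Colq and Lamb2 without WT replicate 3 and that of Lamb2 without KO replicate 2 (adjusted p = 0.0574 to 0.136). Prima1, which anchors acetylcholinesterase to the membrane, moved the other way, at 6.86, 8.68 and 7.70 FPKM in WT and 1.85, 1.67 and 0.210 FPKM in KO (log2 difference -2.06 ± 0.30, adjusted p = 0.00528), while Ache itself had a log2 difference of -0.43 ± 0.15 and was not called. Nos1, the neuronal nitric oxide synthase held at the sarcolemma, fell from 27.6, 38.1 and 38.0 FPKM in WT to 8.49, 5.46 and 5.32 FPKM in KO (log2 difference -2.27 ± 0.19, adjusted p = 0.000344).

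Of 9 genes of the response to denervation, 2 were called higher with all 6 libraries and none lower, against 3.31% and 4.56% of all genes. Log2 differences in this list ran from -2.06, in a gene that was not called, to 0.85. Without KO replicate 3, and likewise with array weights, 2 were called higher and 2 lower, with the replicate block 2 higher and 1 lower, and with all 12 libraries in one fit 1 higher and 2 lower. None was called without WT replicate 1 or without WT replicate 3. Those called higher were the histone deacetylase Hdac4 and the ubiquitin ligase Fbxo32 (log2 differences 0.74 ± 0.14 and 0.85 ± 0.18, adjusted p = 0.0184 and 0.0281). The calls of Hdac4 and Fbxo32 were lost without WT replicate 1, those of Hdac4 and Fbxo32 without WT replicate 3 and that of Fbxo32 without KO replicate 2 (adjusted p = 0.0631 to 0.107). Myog, the myogenic factor induced by denervation, was at 2.43, 1.98 and 2.50 FPKM in WT and 2.09, 2.44 and 4.62 FPKM in KO. Gadd45a was at 18.2, 26.3 and 17.2 FPKM in WT and 14.6, 15.8 and 22.9 FPKM in KO. Neither was called (adjusted p = 0.523 and 0.575). The ubiquitin ligase Trim63 (MuRF1), a marker of atrophy, was at 204, 258 and 140.1 FPKM in WT and 193, 227 and 318 FPKM in KO and was not called either (adjusted p = 0.483).

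Among myogenic and MEF2 factors, Tead4 rose and Tead1 fell. Tead4 was at 1.33, 2.43 and 2.66 FPKM in WT and 10.1, 8.92 and 15.8 FPKM in KO. Tead1 was at 38.0, 48.9 and 49.0 FPKM in WT and 23.9, 26.3 and 29.4 FPKM in KO. No library of one group overlapped the other in either gene. The log2 differences were 1.99 ± 0.23 and -0.75 ± 0.13 (adjusted p = 0.00202 and 0.0123), and no other of the 11 factors was called. The call of Tead1 was lost without WT replicate 2 or WT replicate 3 (adjusted p = 0.0615 to 0.0698). Vgll2, a muscle cofactor of TEAD proteins, was among the 15 strongest falls, at 67.2, 60.9 and 81.5 FPKM in WT and 23.6, 13.1 and 9.26 FPKM in KO (log2 difference -2.20 ± 0.28, adjusted p = 0.0031). Myod1 was at 15.9, 30.5 and 24.3 FPKM in WT and 40.8, 35.5 and 30.9 FPKM in KO, with every KO library above every WT library, but was not called (log2 difference 0.62 ± 0.21, adjusted p = 0.127).

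In the sarcomere, the second largest rise was that of Mybph, a myosin-binding protein of the C-protein family, at 5.98, 8.13 and 4.40 FPKM in WT and 105.27, 197 and 541 FPKM in KO. The slow regulatory light chain Myl2 was at 1.56, 2.94 and 0.470 FPKM in WT and 16.9, 22.7 and 55.4 FPKM in KO. Both were higher in every KO library, and both climbed furthest in KO replicate 3 (log2 differences 5.004 ± 0.50 and 3.55 ± 0.46, adjusted p = 0.000926 and 0.00324). The cardiac and slow-fibre calcium buffer Casq2 was at 13.4, 13.4 and 12.9 FPKM in WT and 39.9, 52.9 and 47.0 FPKM in KO. The Z-disc protein Myoz2 was at 38.8, 28.1 and 32.3 FPKM in WT and 72.5, 60.5 and 83.6 FPKM in KO, with log2 differences of 1.73 ± 0.12 and 1.10 ± 0.15 (adjusted p = 0.000141 and 0.00445). Mybpc1, the slow form of myosin-binding protein C, went down, from 668, 633 and 611 FPKM in WT to 216, 259 and 217 FPKM in KO (log2 difference -1.47 ± 0.11, adjusted p = 0.000205). The slow troponins Tnnc1, Tnni1 and Tnnt1 stayed between 0.59 and 5.36 FPKM in all 6 libraries and were not called. Of 11 slow-fibre genes tested, 3 rose and 1 fell, against 3.31% and 4.56% of all genes.

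Of the 3 myosin heavy chains tested, only Myh1, the type IIX chain, was called. It was at 2097, 2319 and 1866 FPKM in WT and 1147, 1565 and 792 FPKM in KO, lowest in KO replicate 3 (log2 difference -0.89 ± 0.22, adjusted p = 0.0487). The call sat at the threshold and was also lost in other settings, median-of-ratios scaling and removal of the transcript length trend among them. The call of Myh1 was lost without WT replicate 1, WT replicate 2, WT replicate 3 or KO replicate 1 (adjusted p = 0.0851 to 0.171). The type IIB chain Myh4 was at 7706, 8371 and 7394 FPKM in WT and 9284, 10433 and 9414 FPKM in KO, above WT in every KO library but not called (adjusted p = 0.146), and the type IIA chain Myh2 had a log2 difference of -0.27 ± 0.20 (adjusted p = 0.449). Mylpf, the fast regulatory light chain and one of the most abundant transcripts, rose from 8427, 7154 and 7121 FPKM in WT to 13006, 11631 and 13163 FPKM in KO (log2 difference 0.74 ± 0.12, adjusted p = 0.0104), the only gene called of 12 fast-fibre genes. The call of Mylpf was lost without WT replicate 3 (adjusted p = 0.0807). Of 12 embryonic and load-responsive sarcomere genes, 1 rose and 2 fell, against 3.31% and 4.56% of all genes. Without KO replicate 3, and likewise with array weights, 2 were called higher and 7 lower. The falls with all 6 libraries were those of the embryonic light chain Myl4 and the nebulin-related Nrap (log2 differences -1.16 ± 0.18 and -0.52 ± 0.10, adjusted p = 0.00735 and 0.0157). The call of Nrap was lost without WT replicate 2, WT replicate 3 or KO replicate 2 (adjusted p = 0.0658 to 0.0848). The summed level of 10 myofibre markers, Mylpf among them, was 81430 to 92470 FPKM in WT and 104000 to 111500 FPKM in KO. Its part in these results was not tested.

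Of 25 genes of calcium release and SERCA control, 5 rose and none fell, against 3.31% and 4.56% of all genes. The counts were 7 and 1 with all 12 libraries in one fit and 7 and 3 with array weights. Cacna1s, Cacnb1 and Cacng1 encode parts of the voltage sensor in the T-tubule. Cacna1s, the channel subunit, was at 305, 351 and 344 FPKM in WT and 577, 628 and 596 FPKM in KO. Cacnb1 was at 102, 115 and 119 FPKM in WT and 159, 165 and 162 FPKM in KO. Cacng1 was at 219, 204 and 201 FPKM in WT and 303, 284 and 403 FPKM in KO. The KO libraries lay above WT in each, by log2 differences of 0.85 ± 0.10, 0.53 ± 0.09 and 0.65 ± 0.14 (adjusted p = 0.00206, 0.0131 and 0.0268). Asph, whose locus also encodes junctin, and Mrln (myoregulin), a peptide that inhibits the SERCA calcium pump, rose too. Mrln was at 67.0, 59.2 and 67.2 FPKM in WT and 277, 282 and 201 FPKM in KO (log2 difference 1.94 ± 0.14, adjusted p = 0.000205), and Asph had a log2 difference of 0.66 ± 0.10 (adjusted p = 0.00655). The call of Cacng1 was lost without WT replicate 1, those of Cacnb1 and Cacng1 without WT replicate 2, those of Cacnb1 and Cacng1 without WT replicate 3 and that of Cacnb1 without KO replicate 2 (adjusted p = 0.0508 to 0.124).

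Of 23 channels and pumps of the sarcolemma, 3 rose and 6 fell, against 3.31% and 4.56% of all genes. The 6 that fell were all potassium channel genes. Kcng4, a silent subunit that modifies Kv2 channels, was at 27.6, 23.1 and 26.9 FPKM in WT and 8.76, 13.3 and 3.95 FPKM in KO. Kcnc1, a fast voltage-gated channel, was at 23.9, 30.2 and 29.9 FPKM in WT and 15.8, 13.2 and 10.2 FPKM in KO. Kcnq5, of the KCNQ family, was at 4.49, 4.49 and 5.37 FPKM in WT and 1.55, 2.37 and 0.630 FPKM in KO. KO replicate 3 was the lowest library in all 3, and their log2 differences were -1.60 ± 0.33, -1.06 ± 0.16 and -1.26 ± 0.24 (adjusted p = 0.0225, 0.007 and 0.0162). The subunits Kcna7 and Kcnj12 had log2 differences of -0.53 ± 0.12 and -0.45 ± 0.10 (adjusted p = 0.0345 and 0.0303). The calcium-activated channel Kcnma1 was the potassium channel gene that rose (0.85 ± 0.16 on the log2 scale, adjusted p = 0.0168). The sodium pump subunit Atp1b2 was at 102, 104 and 92.6 FPKM in WT and 299, 273 and 226 FPKM in KO. It rose in every KO library (log2 difference 1.40 ± 0.12, adjusted p = 0.000445). The calls of Kcng4, Kcnq5, Kcna7, Kcnj12 and Kcnma1 were lost without WT replicate 1, those of Kcng4, Kcnq5, Kcna7, Kcnj12 and Kcnma1 without WT replicate 2, those of Kcng4, Kcnq5, Kcna7 and Kcnj12 without WT replicate 3 and those of Kcna7 and Kcnj12 without KO replicate 2 (adjusted p = 0.0584 to 0.137). With either rescaling, 4 of the list rose and 3 fell.

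**Figure D4:**
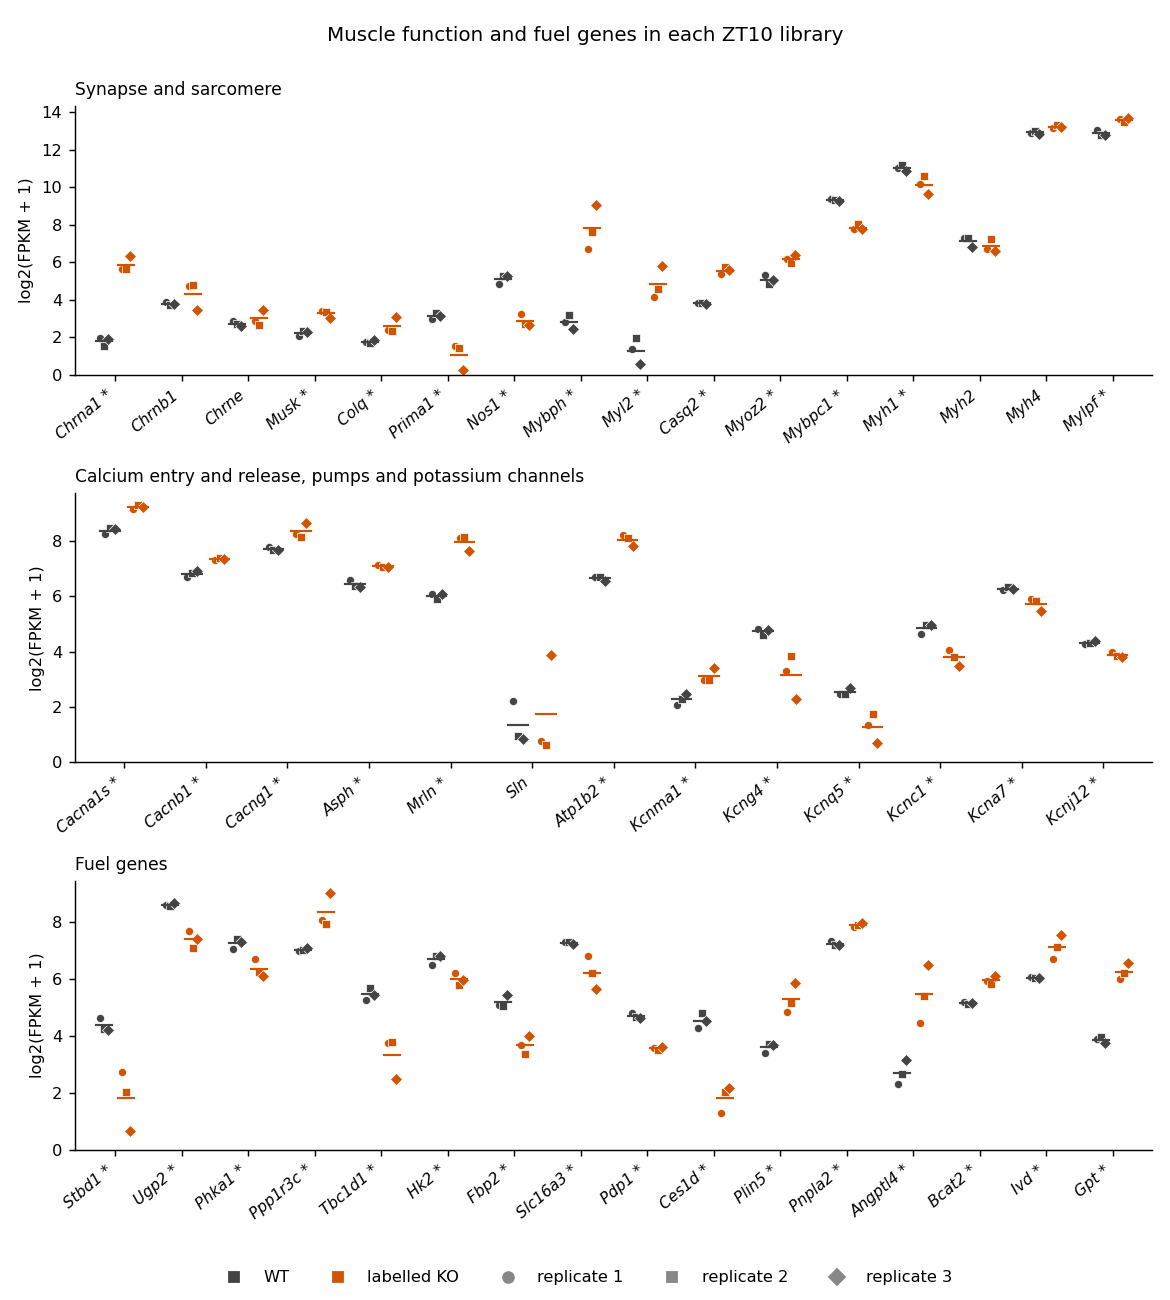
Log2(FPKM + 1) (y axis) in each library for genes of the synapse and sarcomere (top), of calcium release, pumps and potassium channels (middle) and of fuel use (bottom), WT in grey and labelled KO in orange, with symbols for replicates, lines for group means and asterisks for genes called. Chrna1, Mybph, Myl2 and Gpt lie well above WT in all 3 KO libraries, whereas Sln and Chrnb1 separate KO replicate 3 from the other KO libraries.

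Of 17 glycogen genes, 6 fell and 1 rose, against 4.56% and 3.31% of all genes, with a median log2 difference of -0.29. The number that fell was 5 with either rescaling, 4 with no filter on low values or with the replicate block, 3 without WT replicate 1 or KO replicate 2, 2 without WT replicate 2 and 1 without WT replicate 3. Stbd1, which tethers glycogen to membranes, was at 24.1, 18.2 and 17.7 FPKM in WT and 5.67, 3.13 and 0.580 FPKM in KO, dropping furthest in KO replicate 3 (log2 difference -2.57 ± 0.44, adjusted p = 0.0115). Ugp2, which makes the UDP-glucose used for glycogen, was at 392.27, 383 and 405 FPKM in WT and 205, 136 and 170.5 FPKM in KO (log2 difference -1.22 ± 0.14, adjusted p = 0.00222). The phosphorylase kinase subunits Phka1 and Phkb and the glycogen-targeting phosphatase subunit Ppp1r3a also fell, with log2 differences of -0.91 ± 0.17, -0.78 ± 0.17 and -0.80 ± 0.16. Ppp1r3c, a targeting subunit of the same family, rose instead, at 125, 128 and 134 FPKM in WT and 272, 247 and 527 FPKM in KO (log2 difference 1.34 ± 0.25, adjusted p = 0.0157). The phosphorylase Pygm, which breaks glycogen down, was not called (log2 difference -0.13 ± 0.11, adjusted p = 0.506). The calls of Stbd1, Phkb and Ppp1r3c were lost without WT replicate 1, those of Phka1, Phkb, Ppp1r3a and Ppp1r3c without WT replicate 2, those of Stbd1, Phka1, Phkb, Ppp1r3a and Ppp1r3c without WT replicate 3 and those of Phka1 and Phkb without KO replicate 2 (adjusted p = 0.0518 to 0.135).

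Among 26 genes that take up glucose or carry out glycolysis, 9 fell and 2 rose, against 4.56% and 3.31% of all genes. The median log2 difference was -0.31. The count of falls was 5 under median-of-ratios scaling and 7 with the length trend removed. It was 5 without WT replicate 1, 3 without WT replicate 2 or WT replicate 3, and 4 without KO replicate 2. Without KO replicate 3 it was 10, and with array weights 14. The count of rises was 0 without WT replicate 1, WT replicate 2 or WT replicate 3. Tbc1d1, a Rab GTPase-activating protein that restrains transport of glucose carriers, is not one of these 26 genes, whose lowest log2 difference was -1.54. It was among the 15 strongest falls, at 37.2, 50.3 and 43.0 FPKM in WT and 12.5, 12.7 and 4.58 FPKM in KO (log2 difference -2.13 ± 0.32, adjusted p = 0.00655). The insulin-responsive carrier Slc2a4 (GLUT4) was at 258, 267 and 261 FPKM in WT and 205, 179.5 and 194 FPKM in KO, lower in every KO library by a modest amount (log2 difference -0.44 ± 0.09, adjusted p = 0.024). Hexokinase Hk2 was at 88.6, 111 and 111 FPKM in WT and 73.2, 54.8 and 61.4 FPKM in KO. Fbp2, the muscle fructose-1,6-bisphosphatase, was at 32.9, 32.2 and 42.9 FPKM in WT and 12.01, 9.34 and 15.04 FPKM in KO. Their log2 differences were -0.70 ± 0.14 and -1.50 ± 0.18 (adjusted p = 0.0188 and 0.00211). The lactate exporter Slc16a3 (MCT4) was at 157, 157 and 150.0 FPKM in WT and 111, 72.7 and 49.2 FPKM in KO. Slc16a1 (MCT1) was at 18.3, 19.8 and 19.3 FPKM in WT and 10.2, 10.54 and 12.2 FPKM in KO, with log2 differences of -1.06 ± 0.24 and -0.75 ± 0.10 (adjusted p = 0.0349 and 0.00417). Against these, Ldhb, the lactate dehydrogenase subunit of oxidative tissue, was higher at 98.2, 105.43 and 112 FPKM in WT and 155, 231 and 241 FPKM in KO. Pfkfb3, which makes the activator of phosphofructokinase, was at 28.0, 28.4 and 23.8 FPKM in WT and 48.8, 107 and 44.9 FPKM in KO, highest in KO replicate 2. Their log2 differences were 0.96 ± 0.17 and 1.18 ± 0.29 (adjusted p = 0.0117 and 0.0441). The calls of Slc2a4, Slc16a3, Ldhb and Pfkfb3 were lost without WT replicate 1, those of Slc2a4, Hk2, Slc16a3, Ldhb and Pfkfb3 without WT replicate 2, those of Slc2a4, Hk2, Slc16a3, Ldhb and Pfkfb3 without WT replicate 3 and those of Slc2a4, Hk2 and Slc16a3 without KO replicate 2 (adjusted p = 0.0501 to 0.168). At the entry of pyruvate into mitochondria, the phosphatase Pdp1, which switches pyruvate dehydrogenase on, was at 26.8, 24.4 and 24.1 FPKM in WT and 10.96, 10.52 and 11.3 FPKM in KO (log2 difference -1.13 ± 0.09, adjusted p = 0.000344). The opposing kinase Pdk4 was at 581, 687 and 589 FPKM in WT and 483, 1032 and 920.3 FPKM in KO and was not called (adjusted p = 0.486).

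Lipid genes moved in both directions. Of 20 genes of lipid droplets and lipolysis, 3 rose and 5 fell, against 3.31% and 4.56% of all genes. The number that fell was 1 without WT replicate 1, WT replicate 2 or WT replicate 3. It was 2 with the replicate block or without KO replicate 1 or KO replicate 2, 6 without KO replicate 3 and 7 with array weights. In these settings 3 rose. Plin5, the droplet coat of oxidative tissue, was at 9.46, 12.3 and 11.9 FPKM in WT and 28.1, 34.8 and 57.9 FPKM in KO. Pnpla2 (ATGL), the first lipase of triglyceride breakdown, was at 160.2, 146 and 146 FPKM in WT and 228, 238 and 254 FPKM in KO. Both separated the groups (log2 differences 1.70 ± 0.24 and 0.67 ± 0.09, adjusted p = 0.00461 and 0.00482). Ces1d, a carboxylesterase that hydrolyses triglycerides, was at 18.5, 27.2 and 22.1 FPKM in WT and 1.46, 3.12 and 3.46 FPKM in KO. Abhd5, the coactivator of ATGL, was at 19.8, 21.2 and 21.7 FPKM in WT and 15.5, 15.8 and 14.5 FPKM in KO. These fell, with log2 differences of -2.71 ± 0.23 and -0.43 ± 0.09 (adjusted p = 0.000394 and 0.0278). Angptl4, a secreted inhibitor of lipoprotein lipase, was at 3.98, 5.38 and 7.87 FPKM in WT and 21.2, 41.6 and 89.9 FPKM in KO, highest in KO replicate 3 (log2 difference 2.75 ± 0.45, adjusted p = 0.00902). Among 33 genes of fatty acid uptake and oxidation, 4 rose and 1 fell, against 3.31% and 4.56% of all genes. Angptl4, Acsl6, Ppard and Hadha rose, and Ppara fell. The receptors Ppard and Ppara differed by 0.70 ± 0.16 and -0.73 ± 0.12 on the log2 scale (adjusted p = 0.0321 and 0.00864). The calls of Abhd5, Angptl4, Ppard and Hadha were lost without WT replicate 1, those of Abhd5, Ppard and Hadha without WT replicate 2, those of Abhd5, Ppard and Hadha without WT replicate 3, that of Abhd5 without KO replicate 1 and those of Abhd5 and Hadha without KO replicate 2 (adjusted p = 0.052 to 0.171). Car3, the carbonic anhydrase of muscle fibres that is also abundant in fat, had the largest fall, from 1505, 1319 and 1225 FPKM in WT to 77.3, 136 and 215 FPKM in KO (log2 difference -3.35 ± 0.31, adjusted p = 0.000595). The summed level of 8 adipocyte markers was 136.7 to 166.5 FPKM in WT and 130.7 to 183.4 FPKM in KO, with overlapping groups. The median log2 difference of the 5 adipocyte markers tested was 0.66 (from -0.11 to 0.81), and none was called by limma, against 3 called higher with array weights and 1 with the replicate block or without KO replicate 1. Car14, a membrane-bound carbonic anhydrase, rose from 23.9, 21.8 and 18.1 FPKM to 104.68, 97.4 and 166 FPKM (log2 difference 2.44 ± 0.20, adjusted p = 0.000344).

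In amino acid use, Gpt, the alanine aminotransferase that exchanges pyruvate and alanine, was at 13.7, 14.6 and 12.7 FPKM in WT and 62.9, 73.0 and 93.6 FPKM in KO (log2 difference 2.38 ± 0.15, adjusted p = 8.99e-05). Bcat2, the first enzyme of branched-chain amino acid breakdown, was at 35.3, 34.3 and 34.7 FPKM in WT and 60.1, 56.6 and 67.3 FPKM in KO. Ivd, of the leucine branch, was at 65.8, 64.5 and 65.5 FPKM in WT and 104, 138 and 185 FPKM in KO. They rose by log2 differences of 0.80 ± 0.10 and 1.07 ± 0.18 (adjusted p = 0.00254 and 0.0111). The call of Ivd was lost without WT replicate 1 or WT replicate 3 (adjusted p = 0.0542 to 0.0584). They were the only genes called of 24 in that pathway, and 10 of the 24 lay wholly above WT in the KO libraries, against 11.3% of all genes. The count called higher was 4 after median-of-ratios scaling, 3 with the length trend removed, 7 with all 12 libraries in one fit and 9 with array weights. Among carriers, the arginine transporter Slc7a2 was at 16.1, 17.03 and 18.0 FPKM in WT and 3.41, 2.95 and 4.43 FPKM in KO. The peptide transporter family member Slc15a5 was at 10.9, 9.83 and 8.38 FPKM in WT and 1.21, 0.810 and 0.340 FPKM in KO. Their log2 differences were -1.98 ± 0.13 and -2.60 ± 0.19 (adjusted p = 0.000141 and 0.000203). Slc38a4 and Slc38a10, of the neutral amino acid carrier family, rose by 0.85 ± 0.14 and 1.09 ± 0.10 on the log2 scale. The call of Slc38a4 was lost without WT replicate 3 (adjusted p = 0.0624).

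None of 36 complex I genes, 41 genes of complexes II to V, 16 genes of the tricarboxylic acid cycle, 78 mitochondrial ribosomal proteins or 37 proteasome subunits passed the limma test in either direction, at medians between -0.02 and 0.06 on the log2 scale. Of these 208 genes, 18 had an unadjusted p under 0.05, 15 higher and 3 lower, against 2325 of all 9716 genes tested. With either rescaling 1 mitochondrial ribosomal gene was called higher. With array weights 11 mitochondrial ribosomal genes, 3 of complex I, 2 of complexes II to V, 2 of the tricarboxylic acid cycle and 1 proteasome subunit were called higher, and 1 of the tricarboxylic acid cycle lower. With all 12 libraries in one fit 6 mitochondrial ribosomal genes were called higher, and 1 of complexes II to V. In that fit the tricarboxylic acid cycle had 1 gene called higher and 1 lower. Without WT replicate 1, 1 gene of complexes II to V was called higher, and without KO replicate 3, 1 of the tricarboxylic acid cycle. Slc25a25, a carrier that exchanges ATP-Mg and phosphate across the inner membrane, was by contrast the fall next in size to that of Car3, at 17.5, 33.0 and 34.7 FPKM in WT and 2.06, 2.82 and 1.32 FPKM in KO (log2 difference -3.23 ± 0.27, adjusted p = 0.000347). Of 22 genes of mitochondrial biogenesis, dynamics and the AMP-activated kinase, 1 rose and 2 fell, against 3.31% and 4.56% of all genes. Those called were all subunits of that kinase. Prkag3, the γ subunit of fast muscle, was at 50.6, 46.8 and 43.2 FPKM in WT and 97.6, 93.9 and 139 FPKM in KO. The γ subunit Prkag2 was at 10.4, 8.90 and 11.9 FPKM in WT and 6.19, 4.95 and 3.87 FPKM in KO. The β subunit Prkab2 was at 103, 127 and 131 FPKM in WT and 78.0, 75 and 68.5 FPKM in KO. Their log2 differences were 1.195 ± 0.15, -0.93 ± 0.16 and -0.69 ± 0.12 (adjusted p = 0.00326, 0.012 and 0.0111). Nampt, which makes the NAD precursor nicotinamide mononucleotide, fell from 52.8, 52.5 and 51.5 FPKM in WT to 29.0, 24.9 and 25.3 FPKM in KO (log2 difference -0.96 ± 0.10, adjusted p = 0.000901). The call of Prkag2 was lost without WT replicate 1, that of Prkab2 without WT replicate 2 and those of Prkag2 and Prkab2 without WT replicate 3 (adjusted p = 0.056 to 0.0654). Of 80 cytosolic ribosomal protein genes, 35 lay wholly above WT in KO and none wholly below, against 11.3% and 19.3% of all genes, with a median of 0.23, and 3 were called: Rplp0, Rps12 and Rps21 (log2 differences 0.55 ± 0.14, 0.41 ± 0.10 and 0.47 ± 0.12). The call of Rplp0 was lost without WT replicate 1, those of Rplp0, Rps12 and Rps21 without WT replicate 2, those of Rplp0, Rps12 and Rps21 without WT replicate 3, those of Rps12 and Rps21 without KO replicate 1 and those of Rplp0, Rps12 and Rps21 without KO replicate 2 (adjusted p = 0.0788 to 0.205). No gene of that list was called with no filter on low values, with the replicate block, or without WT replicate 2, WT replicate 3 or KO replicate 2. The count called higher was 7 without KO replicate 3, 21 with all 12 libraries in one fit and 28 with array weights.

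Among signalling genes, Mapk8ip1 (JIP1), a scaffold of the JNK kinases, was at 0.950, 0.930 and 0.950 FPKM in WT and 26.3, 20.5 and 39.8 FPKM in KO. Dupd1, a dual specificity phosphatase of muscle, was at 24.7, 21.02 and 19.5 FPKM in WT and 208, 160.5 and 166 FPKM in KO. In both, every KO library stood far above every WT library (log2 differences 3.89 ± 0.21 and 2.97 ± 0.13, adjusted p = 4.43e-05 and 2.19e-05). The JNK genes Mapk8 and Mapk9 had log2 differences of -0.10 ± 0.09 and 0.07 ± 0.10 and were not called, and the activating kinase Map2k7 and the phosphatase Dusp10 fell (-0.47 ± 0.10 and -0.80 ± 0.10). The call of Map2k7 was lost without WT replicate 1, WT replicate 2, WT replicate 3 or KO replicate 2 (adjusted p = 0.0548 to 0.109). Of 5 Smyd lysine methyltransferases, Smyd2 alone was called, at 214, 172 and 173 FPKM in WT and 34.3, 20.8 and 17.9 FPKM in KO (log2 difference -2.93 ± 0.22, adjusted p = 0.000205). The muscle member Smyd1 was at 201, 198 and 211 FPKM in WT and 221, 211 and 205 FPKM in KO (log2 difference 0.06 ± 0.09, adjusted p = 0.719). Kmt5a, the enzyme that places 1 methyl group on lysine 20 of histone H4, fell from 59.6, 54.7 and 57.4 FPKM in WT to 16.1, 12.9 and 6.69 FPKM in KO (log2 difference -2.25 ± 0.25, adjusted p = 0.00178).

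Of 23 genes listed under growth factor, Wnt, Notch and BMP signalling, 7 fell and none rose, against 4.56% and 3.31% of all genes. This list, too, was chosen with earlier results known, and its falls include cytokine receptor chains and the exporter Spns2. The excess may therefore be partly built in. Without KO replicate 3, 6 were called lower and 1 higher. Dkk3, a secreted protein of the Dickkopf family, was at 6.69, 6.64 and 10.8 FPKM in WT and 0.610, 1.02 and 0.330 FPKM in KO. Spns2, which exports sphingosine-1-phosphate, was at 38.6, 43.2 and 44.8 FPKM in WT and 9.29, 5.51 and 7.27 FPKM in KO. Cntfr, Il6ra and Lifr encode receptor chains of the interleukin-6 cytokine family. Cntfr was at 7.70, 9.33 and 7.97 FPKM in WT and 3.03, 1.47 and 3.02 FPKM in KO. Il6ra was at 1.71, 2.92 and 2.65 FPKM in WT and 0.440, 0.770 and 0.490 FPKM in KO. Lifr was at 7.81, 6.87 and 7.70 FPKM in WT and 4.04, 4.78 and 4.33 FPKM in KO, each without overlap between the groups. The log2 differences of the 5 genes were -2.44 ± 0.21, -2.39 ± 0.16, -1.44 ± 0.19, -1.12 ± 0.17 and -0.65 ± 0.11 (adjusted p = 0.00042, 0.000141, 0.0038, 0.00638 and 0.009). The BMP receptors Bmpr2 and Acvr1 fell too (log2 differences -0.53 ± 0.13 and -0.46 ± 0.11), and with either rescaling 5 of the list fell. The call of Acvr1 was lost without WT replicate 1, those of Bmpr2 and Acvr1 without WT replicate 2, those of Lifr, Bmpr2 and Acvr1 without WT replicate 3, that of Acvr1 without KO replicate 1, those of Bmpr2 and Acvr1 without KO replicate 2 and that of Acvr1 without KO replicate 3 (adjusted p = 0.052 to 0.175). Of 14 factors secreted by muscle, Dkk3, the cytokine Il15 and the irisin precursor Fndc5 fell and none rose, against 4.56% and 3.31% of all genes. Without KO replicate 3, 3 were called lower and 1 higher. Il15 was at 7.10, 6.19 and 6.29 FPKM in WT and 2.30, 4.28 and 2.54 FPKM in KO. Fndc5 was at 64.6, 65.4 and 69.0 FPKM in WT and 36.6, 45.4 and 34.8 FPKM in KO (log2 differences -0.93 ± 0.18 and -0.76 ± 0.12, adjusted p = 0.017 and 0.00692). The call of Il15 was lost without WT replicate 1, WT replicate 2 or WT replicate 3 (adjusted p = 0.0615 to 0.0771). Myostatin (Mstn), which limits muscle growth, was at 25.1, 27.3 and 30.4 FPKM in WT and 21.7, 21.1 and 11.1 FPKM in KO and was not called (adjusted p = 0.134).

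Among detoxification genes, Gstm7, a μ-class glutathione transferase, was at 0.920, 1.25 and 1.56 FPKM in WT and 18.2, 25.1 and 28.6 FPKM in KO. Gstm2 was at 45.1, 45.5 and 52.8 FPKM in WT and 110.1, 119.7 and 194 FPKM in KO. Gstm1 was at 151, 145 and 149.8 FPKM in WT and 223, 205 and 186 FPKM in KO. The log2 differences were 3.47 ± 0.18, 1.503 ± 0.20 and 0.46 ± 0.10 (adjusted p = 4.24e-05, 0.00363 and 0.0285). The Gstm genes are close copies of one another, and the sources used here do not say how reads shared between them were counted, so their division is uncertain. The quinone reductase Nqo1 was at 12.9, 11.7 and 13.9 FPKM in WT and 30.2, 36.6 and 89.6 FPKM in KO, highest in KO replicate 3 (log2 difference 1.78 ± 0.34, adjusted p = 0.0173). The microsomal transferase Mgst1 was at 62.5, 60.3 and 61.9 FPKM in WT and 23.7, 27.5 and 17.2 FPKM in KO. The thioredoxin reductase Txnrd1 was at 28.7, 37.9 and 34.6 FPKM in WT and 18.0, 20.1 and 20.1 FPKM in KO. Both fell (log2 differences -1.42 ± 0.16 and -0.76 ± 0.12, adjusted p = 0.00157 and 0.00813). In all, 5 of 26 genes of glutathione use and NRF2 targets rose and 4 fell, against 3.31% and 4.56% of all genes. The calls of Gstm1 and Nqo1 were lost without WT replicate 1, those of Gstm1 and Nqo1 without WT replicate 2, those of Gstm1, Nqo1 and Txnrd1 without WT replicate 3, that of Gstm1 without KO replicate 1 and that of Gstm1 without KO replicate 2 (adjusted p = 0.0507 to 0.121). Pla2g7, which inactivates platelet-activating factor, was at 38.0, 35.2 and 37.3 FPKM in WT and 205, 187 and 208 FPKM in KO, with the smallest standard error among the 15 strongest rises (log2 difference 2.41 ± 0.09, adjusted p = 1.36e-05). Of 11 polyamine genes, Amd1 and Smox fell and none rose, against 4.56% and 3.31% of all genes. Amd1, the decarboxylase that feeds spermidine synthesis, was at 407, 440.4 and 443 FPKM in WT and 247, 168 and 98.7 FPKM in KO. Smox, which oxidises spermine, was at 123, 130.1 and 131 FPKM in WT and 77.7, 35.0 and 39.6 FPKM in KO (log2 differences -1.42 ± 0.28 and -1.41 ± 0.26, adjusted p = 0.0186 and 0.0141). The calls of Amd1 and Smox were lost without WT replicate 1, those of Amd1 and Smox without WT replicate 2, those of Amd1 and Smox without WT replicate 3 and that of Amd1 without KO replicate 2 (adjusted p = 0.0524 to 0.0867). Amd1 has a near copy, Amd2, listed at 19.9, 23.8 and 2.59 FPKM in WT and 1.38, 7.91 and 1.07 FPKM in KO, so reads could have been divided between the genes.

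**Figure D5:**
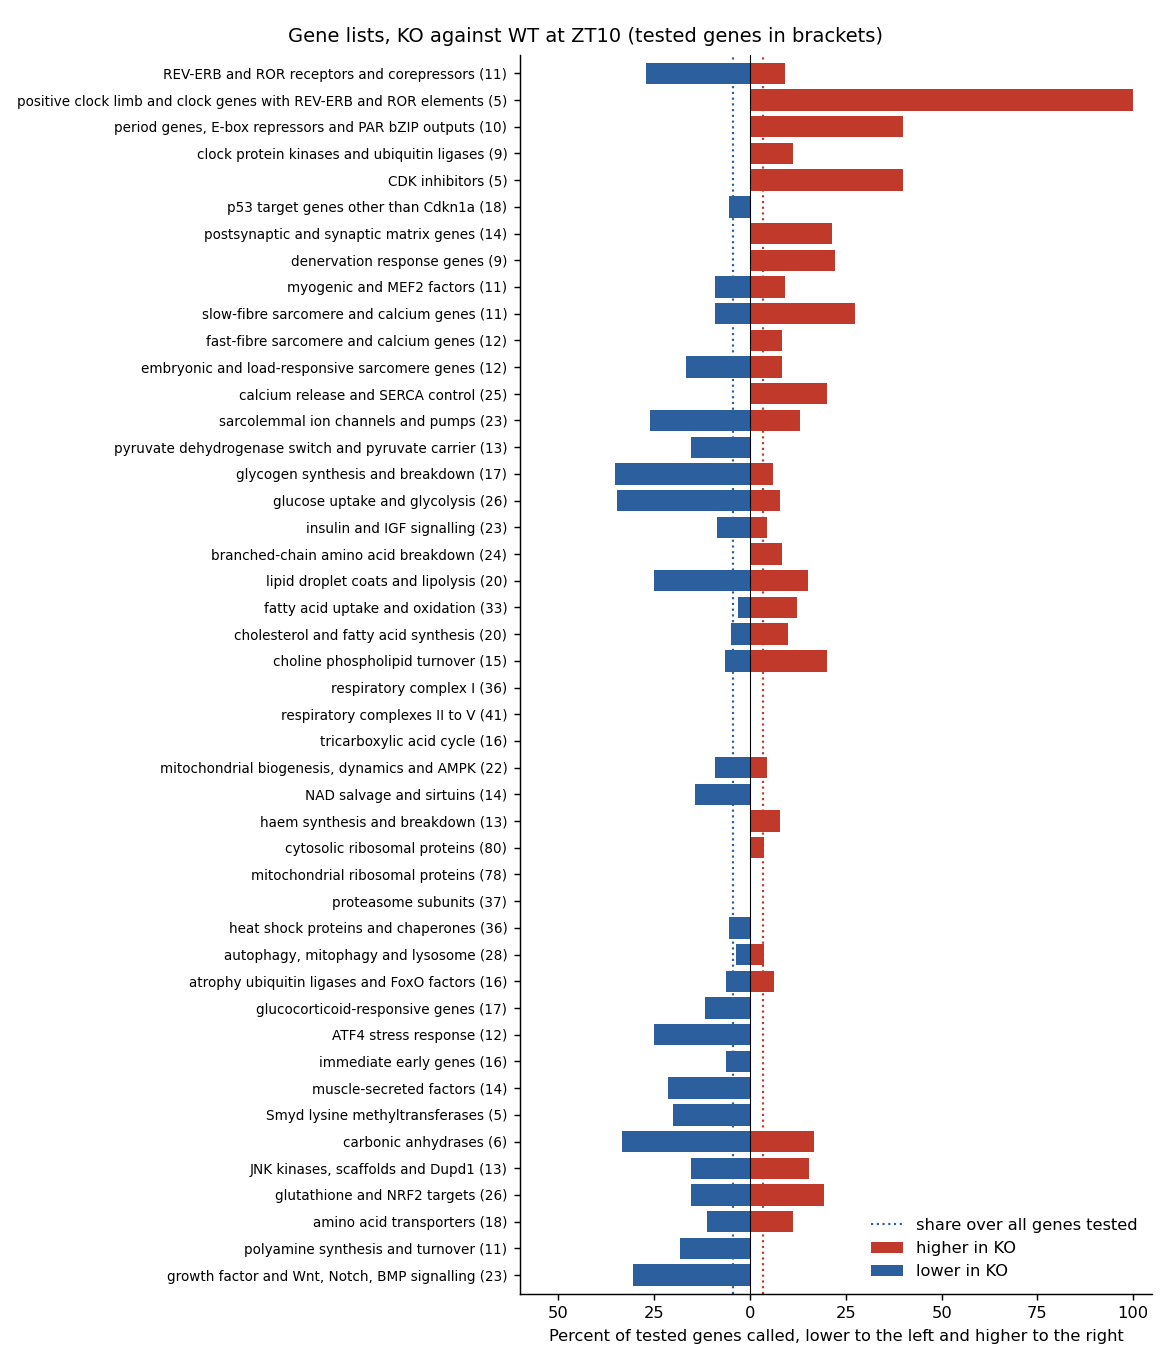
Percent (x axis) of the tested genes of each list (y axis, number tested in brackets, lists with at least 5) that were called higher (red, to the right) or lower (blue, to the left) in KO. Dotted lines mark the shares over all genes tested, 3.31% higher and 4.56% lower. The clock list named for REV-ERB and ROR elements reaches 100%, the glycogen and glucose lists extend mainly to the left, and the respiratory, tricarboxylic acid, mitochondrial ribosomal and proteasome lists are empty.

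Several stress genes were highest in WT replicate 2. The immediate early gene Fos was at 1.64, 14.9 and 1.92 FPKM in WT and 1.33, 3.61 and 1.84 FPKM in KO. Egr1 was at 0.410, 15.8 and 1.22 FPKM in WT and 1.25, 4.63 and 1.93 FPKM in KO. The metallothionein Mt2 was at 17.4, 195 and 17.02 FPKM in WT and 7.11, 6.52 and 17.8 FPKM in KO. In each of these genes WT replicate 2 was the highest of the 6 libraries. Of 16 immediate early genes only Ier3 was called, lower in KO (log2 difference -0.93 ± 0.16, adjusted p = 0.0121), against 4.56% of all genes. The number called lower was 3 with the replicate block or without KO replicate 1 or KO replicate 2. It was 4 with array weights and 0 without WT replicate 1. The call of Ier3 was lost without WT replicate 1 (adjusted p = 0.0505). Of 12 genes of the ATF4 response, Chac1, Ddit3 and Vldlr fell, against 4.56% of all genes. Chac1, which degrades glutathione, was at 71.0, 125 and 78.2 FPKM in WT and 28.3, 41.8 and 36.0 FPKM in KO. The transcription factor Ddit3 (CHOP) was at 7.06, 9.81 and 12.6 FPKM in WT and 5.02, 4.70 and 4.13 FPKM in KO (log2 differences -1.32 ± 0.22 and -0.92 ± 0.18, adjusted p = 0.0104 and 0.02). The calls of Ddit3 and Vldlr were lost without WT replicate 2, those of Ddit3 and Vldlr without WT replicate 3, that of Vldlr without KO replicate 1 and those of Ddit3 and Vldlr without KO replicate 2 (adjusted p = 0.0586 to 0.133). Of 17 genes that respond to glucocorticoids, 2 fell and none rose, against 4.56% and 3.31% of all genes. The counts were 5 and 2 with all 12 libraries in one fit. Tsc22d3 (GILZ) was at 112, 145 and 128 FPKM in WT and 57.1, 78.2 and 56.8 FPKM in KO. The cochaperone Fkbp5 was at 15.2, 13.3 and 12.6 FPKM in WT and 7.25, 5.67 and 10.4 FPKM in KO. Their KO libraries all lay below WT (log2 differences -1.0 ± 0.15 and -0.78 ± 0.19, adjusted p = 0.00659 and 0.0407). The call of Fkbp5 was lost without WT replicate 1, WT replicate 2, WT replicate 3, KO replicate 1 or KO replicate 2 (adjusted p = 0.082 to 0.134). With either rescaling 1 gene of the list fell, and 1 gene of the ATF4 list rose.

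Few markers of other cells in the muscle were called. None passed the limma test among the tested markers of adipocytes (5), fibroblasts and fibro-adipogenic progenitors (8), endothelium (8), smooth muscle and pericytes (5), macrophages (6), erythroid cells (5) and interferon response with antigen presentation (13), nor among 14 collagens and matrix genes. At an unadjusted p under 0.05 there were 2 adipocyte, 1 endothelial, 1 smooth muscle, 2 interferon and 3 matrix genes, and none in the other lists. Over all 9716 genes tested, 2325 had an unadjusted p under 0.05. Those called were the tendon genes Scx, higher, and Thbs4, lower, the satellite cell marker Sdc4, higher, and the myelin gene Mbp, higher. Mbp was at 3.77, 3.66 and 5.70 FPKM in WT and 10.4, 10.04 and 11.7 FPKM in KO (log2 difference 1.14 ± 0.15, adjusted p = 0.0038), but the other Schwann cell markers tested were not called. The summed endothelial level was 82.7 to 91.5 FPKM in WT and 72.3 to 96.1 FPKM in KO, and the summed macrophage level 46.0 to 63.1 and 44.2 to 82.7 FPKM, highest in KO replicate 3. The groups did not overlap in the summed tenocyte level, 25.8 to 33.5 FPKM in WT and 20.2 to 23.6 in KO, nor in the summed level of 3 neutrophil markers, 1.86 to 6.22 FPKM in WT and 0.60 to 1.59 FPKM in KO. The neutrophil sums lay near the floor. Of 6 neutrophil markers only these 3 had an entry, and the 1 that passed the filter was not called. Among all genes tested, the groups did not overlap in 30.6%. WT and KO did not overlap either in the summed satellite cell and Schwann cell levels, which were higher in KO. In each of these lists only 1 of 3 tested markers was called higher, Sdc4 and Mbp. The median log2 differences of the tested markers were -0.18 and -0.03, so the sums do not show a rise of each list as a whole. With either rescaling Sdc4 was not called, and Scx was not called with the length trend removed. Of the proliferation markers only Pcna passed the filter, with no call. The calls of Scx and Sdc4 were lost without WT replicate 1, those of Scx and Sdc4 without WT replicate 3, those of Scx and Sdc4 without KO replicate 1, those of Scx and Sdc4 without KO replicate 2 and that of Sdc4 without KO replicate 3 (adjusted p = 0.0576 to 0.154).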

How the data were processed

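RNA-seq of the tibialis anterior had been deposited by the authors as 1 table with an FPKM value per gene and library, a unit read from the values since the header does not name it. The tools listed in the submitters' processing notes are HISAT2, HTSeq and DESeq2 (1.8.2), and the builds GRCm38 and mm10, with no role or order. The sources used here give neither the annotation nor the strand setting. The authors' fold changes, p-values and q-values were not used. Of 14583 entries, 82 were empty and 230 repeated another exactly. Plin2 had 2 differing entries, of which that with more expression on average was kept, leaving 14270 genes. No per-sample column was left unused.

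Sample titles gave the groups. The 9716 genes whose mean over the 6 libraries reached 1 FPKM were tested in limma (3.58.1, R 4.3.3) on log2(FPKM + 1), with an intensity trend and Benjamini-Hochberg adjustment over all genes tested. Single genes of 3 against 3 libraries cannot go below p = 0.1 in an exact permutation test, so none is printed. Depth was inferred from how far apart the lowest values lay, which followed whole multiples only weakly (mean cosine 0.316 to 0.453), so no counts were recovered and no intervals computed. On simulated data for this comparison over 9716 genes, limma recovered 24 of 50 genes changed 1.5-fold, 38 of 50 changed 2-fold and 49 of 50 changed 4-fold, with 8 false among 169 calls. The simulated noise was normal and independent between genes, with 1 SD per gene for all 6 libraries. No simulated library stood apart as KO replicate 3 did, so these figures may not hold for the real libraries.

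Named genes were Nr1d1, Nr1d2 and Thra, the 15 largest rises and falls among called genes without overlap (predicted genes left out), all members of lists with at most 16 tested genes, up to 8 called members and the 3 most abundant of longer lists, called members changed at least 2-fold, the 8 genes farthest above and below the other libraries in KO replicate 3, the 5 largest uncalled differences over all lists and the defining cell markers. Of 513 such genes 155 were called, and the text gives a selection. Some named genes are not reported here. The members and lists were chosen with earlier results of these data known, and the promoter motifs likewise. Alternatives were a pseudocount of 0.1, no filter and a filter of 5 FPKM, a fit of all 12 libraries, a replicate block, array weights, a robust empirical Bayes step, median-of-ratios scaling, removal of a length trend by lowess (span 0.3), and omission of each library. Figures and summaries used Python 3.11.15 with pandas 2.3.3 and matplotlib 3.10.9.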

Additional observations from a re-analysis of the deposited data

How the results depend on the processing

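The number of genes called moved from 765 to 1437 with all 12 libraries in one fit (540 higher and 897 lower) and to 1897 with array weights (721 higher and 1176 lower), where KO replicate 3 had a weight of 0.3. With 1 library left out, it ranged from 279 to 999, genes called higher from 137 to 424 and genes called lower from 142 to 575. With the other settings it lay between 582 and 767. No named gene that was called reversed its direction under any of the 15 alternatives, and 78 of the 155 kept their call in all alternatives that tested them. WT replicate 3 mattered most to them: its omission ended 73 of the 155 calls, against 4 for the omission of KO replicate 3. The cause was not tested.

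With the replicate number as a block, 613 genes were called (271 higher and 342 lower). Deviations from the group means of same-numbered libraries correlated at 0.096, -0.019 and 0.107, and those of other-numbered libraries at -0.116 to 0.042. With 3 libraries a group, these values cannot settle whether the numbers pair the samples. The share of calls that were higher was 42.1%, 52.3% after median-of-ratios scaling and 53.4% with the length trend removed.

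Depth is known only roughly, which limits weakly expressed genes. With 3 libraries a group smaller changes were recovered less often on simulated data, which held no library like KO replicate 3.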
